A study of Mus musculus with 6 samples.

Results

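The leukocyte miRNAs described here are the mouse mature sequences of the hairpins miR-142a, miR-223, miR-150, miR-155, miR-146a and miR-146b, on either arm. They were taken by name, and 12 of the 1963 distinct mouse sequences in the deposited counts carry these names. The library is Cre-miR122 replicate 2, made from the liver of a mouse given an adeno-associated virus of serotype 9 (AAV9) with Cre recombinase behind the promoter of Tnnt2, the cardiac troponin T gene, and an element named after miR-122. The labels name 3 such libraries and 3 of a Cre group, whose vector is named without that element. The other 5 libraries were not analysed here, so all values describe 1 library, no group was compared, and none of the values has a replicate. The labels give no strain, age, sex, dose or time after injection. Nor do they say whether the element encodes miR-122 or holds sites for it.

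A miRNA hairpin is cut into a short duplex whose strands, the 5p and 3p arms, come from its sides. One strand is usually kept in Argonaute, and its bases 2 to 8, the seed, pair with target mRNAs, so a strand that starts at another base has another seed. miR-142 is made by nearly all blood cells and is often used as a pan-leukocyte marker. miR-223 is abundant in neutrophils and other myeloid cells, and miR-150 in mature lymphocytes, where Myb mRNA is a known target. miR-155, miR-146a and miR-146b are induced by inflammatory signals, the first and second through NF-kB. miR-146a lowers the signalling proteins Traf6 and Irak1 and so damps NF-kB signalling. It is also made by cells other than leukocytes, so its level in whole liver does not count leukocytes. Liver holds Kupffer cells, the resident macrophages, together with lymphocytes and the leukocytes of the blood in its vessels.

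The mature sequences of the arms with reads follow as RefSeq gives them on GRCm38, the assembly also called mm10, with the seed in capitals. They show which members share a seed and which do not.
mmu-miR-142a-5p: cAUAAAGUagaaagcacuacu
mmu-miR-142a-3p: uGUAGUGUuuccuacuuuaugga
mmu-miR-223-5p: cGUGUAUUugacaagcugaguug
mmu-miR-223-3p: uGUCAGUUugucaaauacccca
mmu-miR-155-5p: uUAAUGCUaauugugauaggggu
mmu-miR-146a-5p: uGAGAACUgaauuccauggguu
mmu-miR-146b-5p: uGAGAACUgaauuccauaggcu

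RefSeq sequences were matched for 11 of the 12 members, and mmu-miR-150-5p is named only. miR-146a-5p and miR-146b-5p have the same seed, GAGAACU, and differ at 2 of 22 bases, G18A and U21C, counted from 1 at the 5′ end with the base of miR-146a-5p first. No other mouse sequence of the table has that seed. Each of the other seeds printed above belongs to 1 mouse sequence.

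On GRCm38, Mir142 lies at chr11:87756864-87756927 on the plus strand, in an intron of the noncoding gene Mir142hg, and Mir142b overlaps it on the opposite strand. Mir223 lies at chrX:96242817-96242926, plus strand, in an exon of the antisense RNA gene F630028O10Rik. Mir150 lies at chr7:45121757-45121821, plus strand, in no other annotated gene. Mir155 lies at chr16:84714140-84714204, plus strand, in an exon of Mir155hg. Mir146, the gene of miR-146a, lies at chr11:43374397-43374461 on the minus strand, outside other genes. Mir146b lies at chr19:46342762-46342870, plus strand, in an intron of Mfsd13a.

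The library held 6661069 reads on mouse sequences, and 546 of the 1963 mouse sequences, or 27.8%, had at least 1 read. A share below is the percentage of these mouse reads, and ranges in parentheses are exact 95% intervals that cover counting error alone. PCR copies were counted like other reads, which the intervals do not allow for. A count of 0 was compared through a floor of 3 reads, or 4.5e-05% of mouse reads, while its exact 95% interval reaches 5.54e-05%. Folds against an arm with 0 reads use the floor and are not lower bounds, since that interval reaches above it. The table also lists miRNAs of other species, and some of these entries are the mouse sequence with another first or last base, called end forms here. Values "with end forms" add them, as a share of the 8032202 reads on mouse sequences and end forms. Since whole liver was sequenced, a low level cannot be split into few leukocytes and little miRNA per leukocyte.

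All members together held 4713 reads, 0.0708% of mouse reads (0.0688 to 0.0728), or 9161 reads and 0.114% with end forms (0.112 to 0.116). Reads were present for 8 of the 12 sequences, each with at least 10 reads, against 15.4% of all mouse sequences with at least 10. The median member had 25 reads, and the median of all mouse sequences was 0. One miRNA, miR-146a-5p, held most of the reads. The order by mouse entries was miR-146a-5p, miR-146b-5p, miR-150-5p, miR-223-3p, miR-155-5p, miR-142a-5p and miR-142a-3p, which were equal, and miR-223-5p. The first 3 steps of that order exceeded counting error, and the last 4 steps, all between 42 and 22 reads, did not. With end forms the order was miR-146a-5p, miR-146b-5p, miR-142a-5p, miR-150-5p, miR-142a-3p, miR-223-3p, miR-155-5p and miR-223-5p. There miR-150-5p was not distinguishable from miR-142a-3p, at a ratio of 1.17 (0.934 to 1.47), nor miR-223-3p from miR-155-5p, at 1.19 (0.812 to 1.75).

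**Figure D1:**
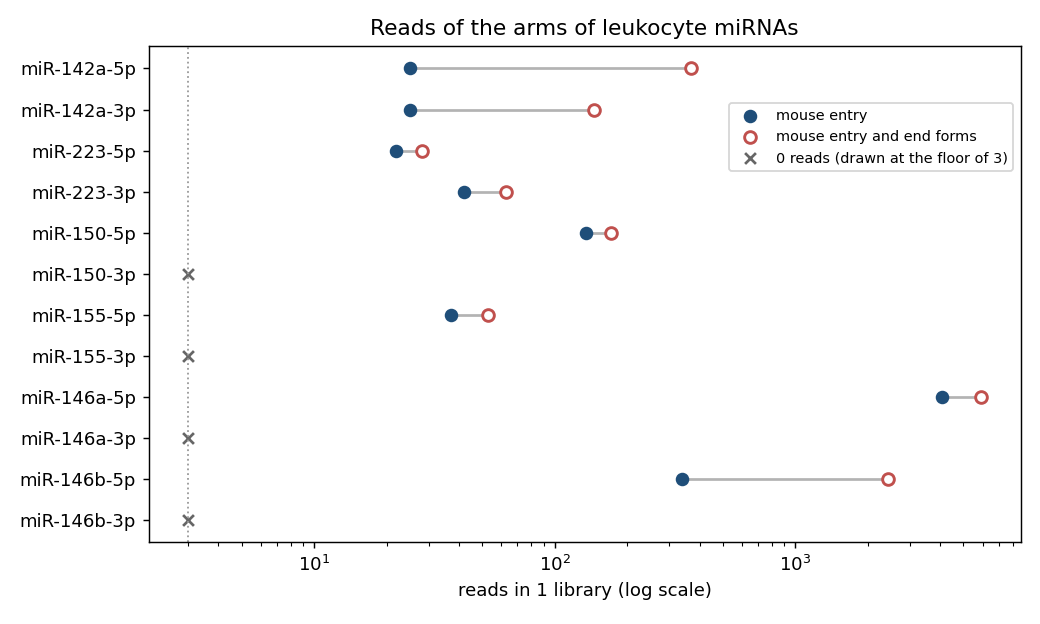
Reads of each arm in 1 library on a log axis, as mouse-entry reads (filled) and with end forms added (open); crosses mark arms with 0 reads, drawn at the floor of 3. The widest gaps between the marks are those of miR-142a-5p, from 25 to 369 reads, miR-146b-5p, from 337 to 2425, and miR-142a-3p, whose reads are 5.84-fold higher with end forms.

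**Figure D2:**
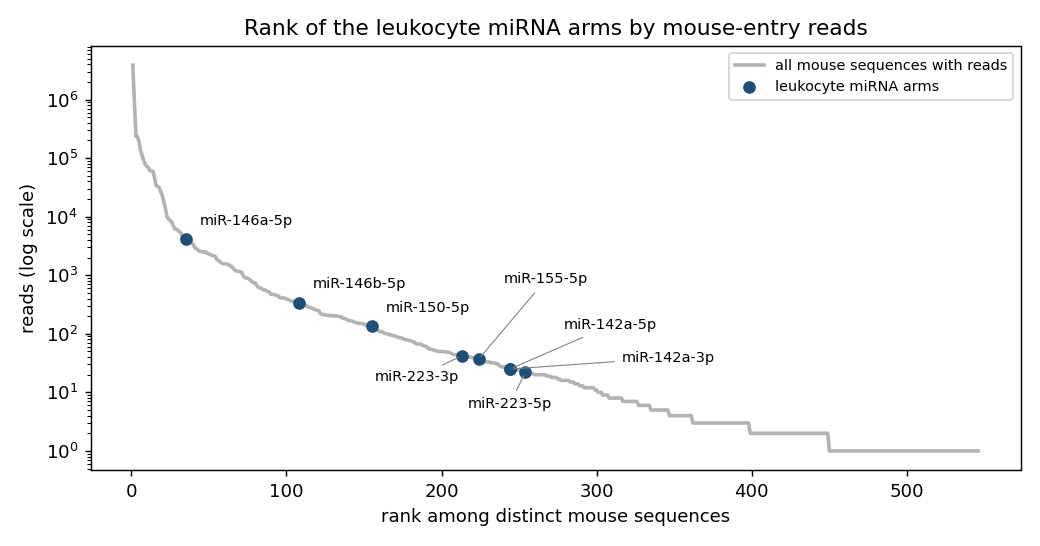
Reads (log axis) against rank for the 546 mouse sequences with reads, with the leukocyte miRNA arms as points. miR-146a-5p stands at rank 35 with 4090 reads, and the arms of miR-142a and miR-223 and miR-155-5p stand between ranks 213 and 254.

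The pan-leukocyte miRNA miR-142a was low by its mouse entries and mostly present in other forms. mmu-miR-142a-5p had 25 reads, 0.000375% of mouse reads (0.000243 to 0.000554), and mmu-miR-142a-3p also had 25. With end forms the 5p arm had 369 reads, 0.00459% (0.00414 to 0.00509), and the 3p arm held 0.00182% (0.00154 to 0.00214), 5.84 times the reads of its mouse entry. The mouse entry thus held 6.78% of the reads of the 5p arm (4.43 to 9.84) and 17.1% of those of the 3p arm (11.4 to 24.2). The arms were level by mouse entries, at a ratio of 1 (0.551 to 1.82), and the 5p arm had 2.53 reads per read of the 3p arm with end forms (2.08 to 3.08). The second ratio does not count the arms alike, since 5 end forms are listed for the 5p arm and 7 for the 3p arm, with unlike starts and ends.

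Most counted reads of miR-142a-5p began 2 bases upstream of the annotated start, which gives another seed. The forms with reads were as follows, the seed again in capitals, in the order 274, 58, 25, 11 and 1 reads. The third line is the mouse entry itself.
5p, start 2 earlier, end 3 earlier: cCCAUAAAguagaaagcacu
5p, start 2 earlier, end 2 earlier: cCCAUAAAguagaaagcacua
5p, mouse entry: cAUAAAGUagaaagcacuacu
5p, start 2 earlier, end 1 earlier: cCCAUAAAguagaaagcacuac
5p, same start, end 1 earlier: cAUAAAGUagaaagcacuac

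The 3 forms with the earlier start held 343 of the 369 reads, or 93.0% of the arm (89.8 to 95.4). The annotated start held 26 reads, or 7.05% (4.65 to 10.2). Forms with the annotated start that end 2 or 3 bases early have no entry, so such reads could not be counted, though most counted reads end there. Nor is the earlier start listed with the end of the mouse entry. The shares of each start and end thus hold for the listed pairs alone. The most frequent form alone, of 20 bases, held 74.3% (69.5 to 78.6). Its seed, CCAUAAA, is not that of mmu-miR-142a-5p. It is the seed of mmu-miR-142b, a miRNA annotated on the opposite strand of the same locus, which had 0 reads with or without end forms. The mature mmu-miR-142b of RefSeq is shown for comparison.
mmu-miR-142b: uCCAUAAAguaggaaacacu

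The 3p arm of miR-142a was split between start sites as well. Its forms are given in the order 54, 40, 25, 24 and 3 reads.
3p, same start, end 1 earlier: uGUAGUGUuuccuacuuuaugg
3p, start 1 later, same end: gUAGUGUUuccuacuuuaugga
3p, mouse entry: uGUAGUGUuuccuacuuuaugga
3p, start 1 later, end 1 earlier: gUAGUGUUuccuacuuuaugg
3p, start 2 later, same end: uAGUGUUUccuacuuuaugga

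The annotated start held 79 reads, or 54.1% of the arm (45.7 to 62.4), and the start 1 base later held 64, or 43.8% (35.6 to 52.3). The 3 remaining reads began 2 bases later. No mouse sequence in the table has the seed UAGUGUU or AGUGUUU. By 3′ end, 78 reads (53.4%) stopped 1 base before the mouse entry and 68 (46.6%) at its last base.

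**Figure D3:**
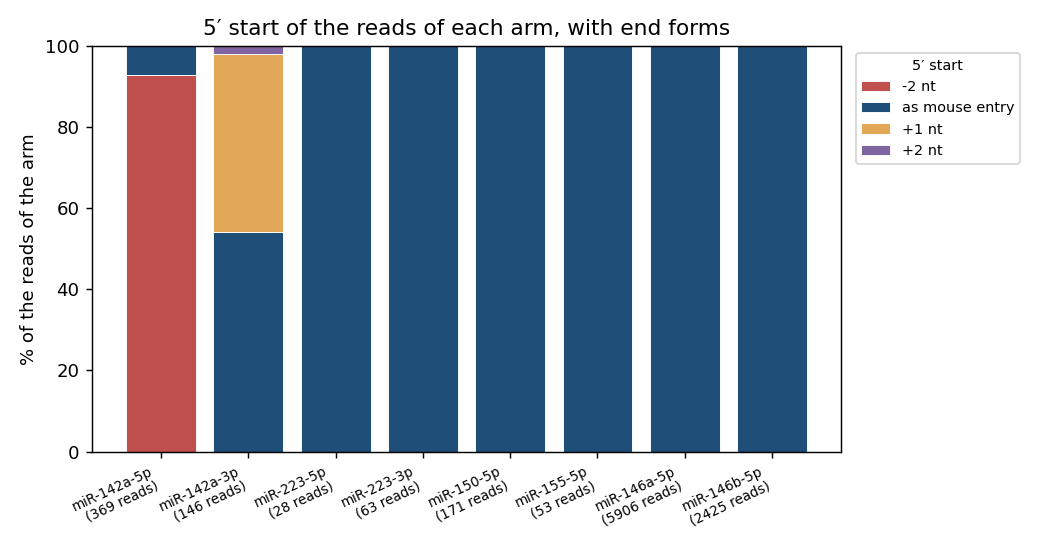
Share of the reads of each arm by 5′ start relative to the mouse entry, with end forms, in 1 library; the number of reads is under each bar. Reads at another start are seen in miR-142a-5p (93.0%) and miR-142a-3p (45.9%). The share of miR-142a-5p holds for the listed pairs of start and end alone. Of the other 6 arms, only miR-223-5p has entries with another start, so the rest could show none.

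Whether the other 6 arms with reads also began at other bases could be asked of miR-223-5p alone. Its entries with a start 1 base later had 0 reads, against 28 at the annotated base, which allows a share of up to 12.3%. For miR-223-3p, miR-150-5p, miR-155-5p, miR-146a-5p and miR-146b-5p no entry with another start was assigned, so their starts were not measured. Over the 204 mouse arms with at least 100 reads including end forms, the median share of reads with another start was 0%, and it exceeded 50% in 9 arms, or 4.41%. The share was higher than that of miR-142a-5p in 2 arms, miR-382-3p with 100% of 2023 reads and miR-483-3p with 97.3% of 150, which were named after their values were seen. Another start can be counted only where some species' entry records it. This was so in 76 of the 204 arms, whose median share was 1.75%.

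The myeloid miRNA miR-223 was present on both arms. mmu-miR-223-3p, the arm usually kept, had 42 reads, 0.00063% of mouse reads (0.000454 to 0.000852), and ranked 213 of the mouse sequences. mmu-miR-223-5p had 22 reads, 0.00033% (0.000207 to 0.0005). With end forms these were 63 and 28 reads. The 3p arm had 1.91 reads per read of the 5p arm (1.11 to 3.36), or 2.25 with end forms (1.42 to 3.65). Its 63 reads comprised 42 of the mouse entry, 13 that ended 1 base later, 3 that ended 1 base earlier and 5 that ended 2 bases earlier.

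The lymphoid miRNA miR-150 was represented by its 5p arm. mmu-miR-150-5p had 135 reads, 0.00203% (0.0017 to 0.0024), more than 71.6% of the mouse sequences with reads, and mmu-miR-150-3p had 0, also with end forms. The reads of the 5p arm were 45 times the floor of 3 reads set for the 3p arm. With end forms miR-150-5p had 171 reads, of which 36, or 21.1% (15.2 to 27.9), ended 1 base early. miR-150-5p had 3.21 reads per read of miR-223-3p (2.26 to 4.66), or 2.71 with end forms (2.02 to 3.68).

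Among the miRNAs induced by inflammatory signals, miR-146a-5p was high and miR-155-5p low. mmu-miR-146a-5p had 4090 reads, 0.0614% of mouse reads (0.0595 to 0.0633), at rank 35, above 93.6% of the mouse sequences with reads. mmu-miR-146b-5p had 337 reads, 0.00506% (0.00453 to 0.00563), at rank 108. mmu-miR-155-5p, from the Mir155hg transcript, had 37 reads, 0.000555% (0.000391 to 0.000766), at rank 224. The 3p arms mmu-miR-146a-3p, mmu-miR-146b-3p and mmu-miR-155-3p each had 0 reads. The reads of the 5p arms were 1363, 112 and 12.3 times the floor of 3 reads set for these.

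miR-146a-5p had 110 reads per read of miR-155-5p (80.1 to 157), and this ratio was 111 with end forms (85.1 to 149). Its lead over miR-146b-5p depended on the forms counted. By mouse entries it was 12.1 to 1 (10.9 to 13.6), and with end forms 2.44 to 1 (2.32 to 2.55), because 86.1% of the reads of miR-146b-5p were end forms. The second ratio is not like for like. Listed end forms number 3 for miR-146b-5p, with longer ones among them, and 1 for miR-146a-5p, which is shorter. The seed GAGAACU, summed over both miRNAs, held 4427 reads, 93.9% of the reads of all members, or 8331 reads and 90.9% with end forms.

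The 3′ ends counted for these miRNAs, from the entries listed for each, differed although they share their first 17 bases. The forms of miR-146b-5p are shown in the order 921, 848, 337 and 319 reads, and those of miR-146a-5p in the order 4090 and 1816.
miR-146b-5p, end 1 later: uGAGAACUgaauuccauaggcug
miR-146b-5p, end 2 later: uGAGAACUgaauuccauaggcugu
miR-146b-5p, mouse entry: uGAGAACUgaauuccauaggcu
miR-146b-5p, end 1 earlier: uGAGAACUgaauuccauaggc
miR-146a-5p, mouse entry: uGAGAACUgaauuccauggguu
miR-146a-5p, end 1 earlier: uGAGAACUgaauuccaugggu

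For miR-146b-5p the forms of 23 and 24 bases held 38.0% (36.0 to 40.0) and 35.0% (33.1 to 36.9) of the arm, and the mouse entry of 22 bases held 13.9% (12.5 to 15.3). For miR-146a-5p the mouse entry held 69.3% (68.1 to 70.4). The entries of 23 and 24 bases each had more reads than the mouse entry of 22 bases, which both contain, so a read was not added to every entry that it contains. No entry lists a miR-146a-5p form that runs further into its hairpin, so longer genomic ends of miR-146a-5p are not seen.

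**Figure D4:**
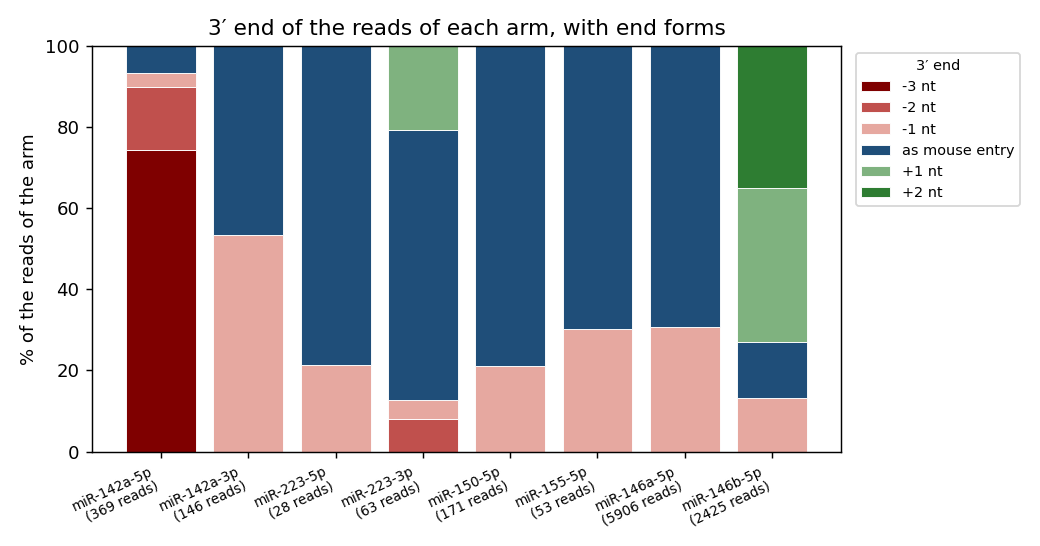
Share of the reads of each arm by 3′ end relative to the mouse entry, with end forms, in 1 library; the number of reads is under each bar. miR-146b-5p has most reads 1 and 2 bases beyond its entry (38.0% and 35.0%), and miR-142a-5p ends 3 bases short of its entry in 74.3% of its counted reads. That end of miR-142a-5p is listed only with the earlier start.

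Grouped by class and by mouse entries, the miRNAs induced by inflammatory signals held 4464 reads, 0.067% of mouse reads (0.0651 to 0.069). The lymphoid class held 135, 0.00203% (0.0017 to 0.0024). The myeloid class held 64, 0.000961% (0.00074 to 0.00123), and the pan-leukocyte class 50, 0.000751% (0.000557 to 0.00099). The pan-leukocyte miRNA was thus lower than the lymphoid one, at 0.37 reads per read (0.262 to 0.516), and not distinguishable from the myeloid one, at 0.781 (0.529 to 1.15).

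With end forms the place of miR-142a changed. Its class held 515 reads, 0.00641% (0.00587 to 0.00699), above the lymphoid class with 171 reads, 0.00213% (0.00182 to 0.00247), and the myeloid class with 91, 0.00113% (0.000912 to 0.00139). The pan-leukocyte class then had 3.01 reads per lymphoid read (2.53 to 3.6) and 5.66 per myeloid read (4.52 to 7.15). The classes are not counted alike here. Listed end forms number 5 and 7 for the arms of miR-142a, 3 for each arm of miR-223 and 1 for each arm of miR-150. With 3′ end forms only, other starts were left out of each class, but not out of the 8032202 reads that shares were taken of. The pan-leukocyte class then held 0.00131%. That is below the lymphoid class with 0.00213% and near the myeloid class with 0.00113%. The class induced by inflammatory signals is called NF-kB-induced here, though it includes miR-146b. It led by mouse entries and with end forms, with 8384 reads or 0.104% with end forms. Of these, 5906 were of miR-146a-5p and 2425 of miR-146b-5p. miR-155-5p had only 53, fewer than miR-150-5p with 171, so the lead is that of miR-146a and miR-146b. The class had 89.3 reads per pan-leukocyte read by mouse entries (67.6 to 120), and 16.3 with end forms (14.9 to 17.8). The lymphoid class exceeded the myeloid class under both, by 2.11 to 1 (1.56 to 2.89) and 1.88 to 1 (1.45 to 2.45). These are ratios of reads of 1 library, and ligation during library preparation favours some sequences, so they are not ratios of molecules or of cells.

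**Figure D5:**
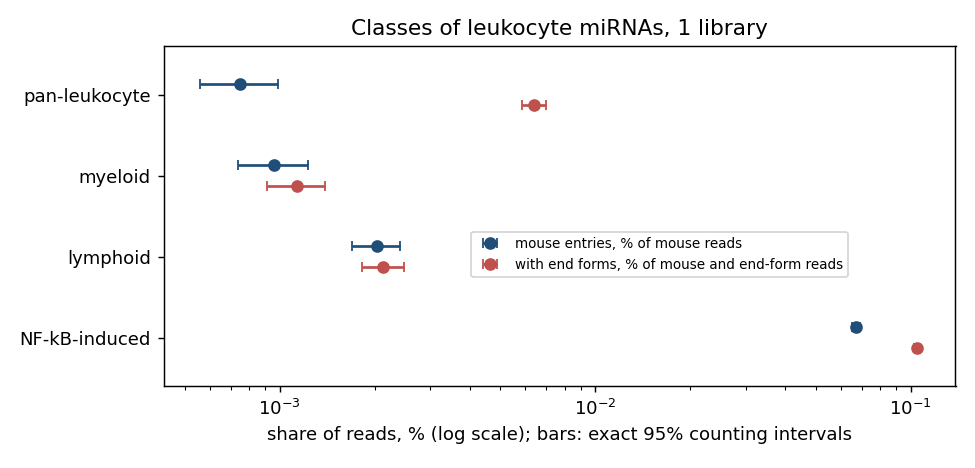
Share of reads (log axis) of each class in 1 library, by mouse entries (blue) and with end forms (red), with exact 95% counting intervals. With end forms the pan-leukocyte class moves from 0.000751% to 0.00641% and passes the myeloid and lymphoid classes, and the NF-kB-induced class is highest under both. More end forms are listed for miR-142a than for miR-223 or miR-150. With 3′ end forms only, the pan-leukocyte class stays below the lymphoid class.

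Markers of other cell types were compared with the 4713 reads of all members, or 9161 with end forms. The hepatocyte miRNA miR-122-5p held 236027 reads, 50.1 per member read or 74.8 with end forms, and miR-192-5p, of liver and gut, had 15.3 or 8.98. The labels do not say whether the vector's element encodes miR-122, so any miR-122-5p reads from the vector could not be told apart. miR-126a-3p of endothelial cells had 12.6 per member read, or 14.7 with end forms. The markers of stellate and mesenchymal cells were uneven, since miR-143-3p had 28.8 per member read, or 17.8 with end forms, and the sequence shared by miR-199a-3p and miR-199b-3p had 0.381, or 1.04. miR-200b-3p of bile duct epithelium had 0.302, or 0.632 with end forms.

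The markers of striated muscle were uneven as well. miR-1a-3p had 208 reads per member read, or 116 with end forms, and miR-206-3p had 14.6, or 9.6. miR-133a-3p had 0.194, or 1.27 with end forms. The library labelled liver thus also carried reads of miRNAs known from muscle, whose part in the levels of the leukocyte miRNAs was not tested. The red cell miRNAs were uneven too. miR-486a-5p, whose sequence miR-486b-5p shares, had 2549 reads, 0.541 per member read or 0.335 with end forms. miR-451a had 305 reads, 0.0647 per member read, and 2635 with end forms, 0.288 per member read. miR-144-3p had 3 reads, or 7 with end forms. How much of the leukocyte miRNA reads came with blood was not tested.

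A list of 65 other mouse sequences named for leukocytes or for induction by inflammatory signals was read beside the members. Of these, 49, or 75.4%, had reads, against 27.8% of all mouse sequences. Their median was 8 reads and together they held 0.477% of mouse reads (0.472 to 0.483). With end forms 55, or 84.6%, had reads, against 30.3% of all mouse sequences. The median was then 33 reads and the sum was 1.51% (1.5 to 1.52). The 4 highest were miR-21a-5p with 9945 reads, miR-99b-5p with 9101, miR-24-3p with 2664 and miR-23a-3p with 2499. These are made by many cell types, so the sum of the list does not stand for leukocytes.

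Besides these, 6 miRNAs of the list with known leukocyte roles are given by name. miR-342-3p, from the Evl gene and abundant in leukocytes, had 63 reads, or 161 with end forms. miR-132-3p, induced in stimulated monocytes, had 58 reads, or 92, and its neighbour miR-212-3p had 3, or 7, against 20 of miR-212-5p. miR-9-5p, which stimulated monocytes and neurons make, had 55 reads, or 175. miR-511-3p, from the macrophage mannose receptor gene Mrc1, had 5 reads, or 7, and miR-511-5p had 0, or 2 with end forms. miR-147-3p, induced in macrophages by Toll-like receptors, had 0 reads and 2 with end forms. Of these, miR-342-3p, miR-132-3p and miR-9-5p lay above the list median and above miR-223-3p, and the counts of 0 to 7 lie within or near the floor of 3 reads.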

How the data were processed

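Small RNA of mouse liver was ligated to adapters at both ends, amplified, size-selected and sequenced as single reads, per the labels' protocols. The deposited file gives raw counts of reads for each of 48885 mature miRNA entries of many species in 1 library, per the file headers. The column matches the title of Cre-miR122 replicate 2 alone, and 0 columns of other libraries were present. How reads were matched to entries is not given in the sources used here, and mm10 is named in the submitters' processing notes.

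Identical sequences had equal counts, so each distinct sequence was used once. An end form is an entry of another species that lies exactly in a mouse hairpin of GENCODE M21 and overlaps 1 mouse sequence by at least 15 nt, the same one at each place. It was assigned by sequence, since some entries named miR-146a hold a miR-146b sequence. Intervals of shares are exact (Clopper-Pearson), and those of a ratio come from the binomial distribution of its first count within the sum. The calculations were tested on simulated data. With 1 library, no test between groups was possible.

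The members, classes and lists were chosen with earlier results of these data known. All arms of the 6 hairpins are named, with markers, the 4 highest sequences of the other list and 6 of its miRNAs. Alternatives changed the denominator, the counting of end forms and the minimum of 10 reads. The software was SciPy 1.17.1 and NumPy 2.4.6 for intervals, pandas 2.3.3 for tables and matplotlib 3.10.9 for plots, under Python 3.11.15.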

Additional observations from a re-analysis of the deposited data

Results flagged for a closer look

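Reads on entries of other species lay outside the mouse-entry counts and were above the floor of 3 reads. Entries inside the hairpins of the leukocyte miRNAs held 4448 reads over 18 sequences, 48.6% of the reads of these miRNAs with end forms.

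Another 628 reads were on 7 sequences that equal an arm except for their last bases. Of these, 599 belonged to miR-146a-5p, 9.21% of its reads with these forms counted (8.52 to 9.94). The form with A23U, counted from 1 at the 5′ end with the hairpin base first, had 517 reads, and the form with A23G had 82. Both are the mouse entry with 1 further base that the hairpin does not have there.
miR-146a-5p with A23U: uGAGAACUgaauuccauggguuu

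miR-146b-5p had 6 reads of this kind, 0.247% (0.0906 to 0.536). miR-150-5p had 18 with C23U, 9.52% (5.74 to 14.6), and miR-223-5p had 5 with G23U. The origin of these last bases was not tested. Entries with U12C in miR-155-5p had 4 reads in all.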

How the results depend on the processing

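The order of the classes depended on the counting of end forms. With them, whether same-named or of any name, the pan-leukocyte class held 0.00641% and the NF-kB-induced class 0.104%. The ratio of pan-leukocyte to lymphoid reads reversed to 3.01, and that of pan-leukocyte to myeloid reads moved to 5.66. Ratios of the NF-kB-induced class to the pan-leukocyte, myeloid and lymphoid classes moved to 16.3, 92.1 and 49.0. The 5p to 3p ratio of miR-142a was then 2.53, that of miR-146a-5p to miR-146b-5p 2.44, and that of miR-146b-5p to miR-155-5p 45.8. The other list held 1.51%. With 3′ end forms only, as a share of the reads on mouse sequences and all end forms, the pan-leukocyte class held 0.00131%. That is below the lymphoid class with 0.00213%, and the NF-kB-induced class held 0.104%. Adding forms with other last bases, an alternative chosen after seeing the data, gave 0.00641% and 0.112% for the pan-leukocyte and NF-kB-induced classes. These moves follow from the reads that each counting adds, and so depend on which end forms are listed for each miRNA.

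Denominators changed all shares by a common factor. Over all sequences of the table the lymphoid and NF-kB-induced classes held 0.00165% and 0.0547%. Without miR-148a-3p the 4 classes held, from pan-leukocyte to NF-kB-induced, 0.00178%, 0.00228%, 0.00481% and 0.159%. Without miR-1a-3p and miR-206-3p the lymphoid and NF-kB-induced classes held 0.00241% and 0.0795%. A minimum of 10 reads could take no read from the 4 classes, since every member with reads had at least 22, so it does not test their shares. Of the 8 members with reads, 4 moved beyond their intervals with end forms, all upward, and end forms only add reads to an arm. The members with 0 reads had 0 with end forms too and could not move. No replicate could be left out, and no paired analysis was possible because the counts cover a single library. At this depth, the members with 22 to 42 reads were not separated from their neighbours within that range.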
